A study of Mus musculus with 8 samples.

Results

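The loci of 6 genes of the absorptive colonocyte were followed in mouse colon cancer organoids with and without Gata6: Vil1, Cdh17, Lgals4, Fabp1, Slc26a3 and Car2. H3K27ac, an acetylated form of histone H3 that marks promoters and enhancers in use, was mapped by CUT&RUN, a method that releases and sequences the DNA around an antibody-bound mark. The members were all peaks of the shared peak set that overlapped a fixed mm9 window around each gene by at least 1 bp. They numbered 23 of 22731 peaks: 6 at Vil1, 8 at Cdh17, 6 at Lgals4, 1 at Slc26a3 and 2 at Car2. The Fabp1 window held no peak. The tested libraries were 3 from Gata6 knockout AKP organoids (genotype label Gata6KO_AKP), set against 3 from control AKP organoids (genotype label AKP). Both groups carry the AKP label, and the labels spell out neither its alleles nor the way Gata6 was deleted. They give C57Bl6 as the recipient mice, and do not say whether a group is 1 clone or several cultures, so the spread behind each p-value is that between libraries and may be technical only. Each library was made from 500000 dissociated cells.

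Absorptive colonocytes are the surface cells of the colon that take up water, salt and short-chain fatty acids, and they mature from stem cells at the base of the crypt. Their identity is set by transcription factors that include CDX2, the HNF4 factors and the GATA factors of the endoderm, of which GATA6 is one. The 6 genes were taken as examples of that programme and do not stand for the whole of it. Vil1 encodes villin, which bundles actin in the microvilli of the brush border. Cdh17 encodes liver-intestine cadherin, an adhesion protein of gut epithelium, and Lgals4 encodes galectin-4, a sugar-binding lectin of the same epithelium. Slc26a3 encodes the apical chloride-bicarbonate exchanger, and Car2 encodes carbonic anhydrase 2, the cytosolic enzyme that supplies bicarbonate and protons. Fabp1 encodes the liver-type fatty acid-binding protein, a carrier best known from liver and small intestine.

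The promoters of 4 of the 6 genes were read from RefSeq (GRCm38.p6), as 250 bases before to 50 bases after the gene's start. These coordinates belong to that build and are not comparable with the mm9 positions of the peaks. The promoters of Vil1, the locus with the highest summed acetylation, and of Fabp1, the locus without a peak, are shown because they stand at the ends of the range. Vil1 is at chr1:74409134-74409433 and Fabp1 at chr6:71199629-71199928, both on the plus strand. Capitals mark the letters of a CDX motif, TTTATG or TTTATT on either strand, and lower case marks everything else.
Vil1: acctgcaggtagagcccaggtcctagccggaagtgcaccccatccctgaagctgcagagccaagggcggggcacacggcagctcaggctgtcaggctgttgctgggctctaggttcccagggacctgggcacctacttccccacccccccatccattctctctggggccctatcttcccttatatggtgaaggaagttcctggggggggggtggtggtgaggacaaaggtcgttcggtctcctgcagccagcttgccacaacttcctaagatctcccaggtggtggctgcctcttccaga
Fabp1: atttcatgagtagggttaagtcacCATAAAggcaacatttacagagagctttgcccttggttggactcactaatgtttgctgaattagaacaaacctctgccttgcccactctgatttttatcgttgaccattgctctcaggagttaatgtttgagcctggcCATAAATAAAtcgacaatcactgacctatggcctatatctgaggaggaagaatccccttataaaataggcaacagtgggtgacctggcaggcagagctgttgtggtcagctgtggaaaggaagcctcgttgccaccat
The Fabp1 promoter held 3 such matches, 1 standing alone and 2 that overlap by 2 bases, and its GC content was 45.0%. The Vil1 promoter held none, and its GC content was 61.7%. Those of Lgals4 and Slc26a3, at 54.0% and 39.3% GC, held none either. Neither of the GATA motifs searched, AGATAA and TGATAA on either strand, was present in any of these 4 promoters, and 18.6% of the 32851 promoters in the table held at least 1 of them. At least 1 CDX motif was present in 27.6% of all promoters. The HNF4 motif CAAAGTCCA was absent from the 4 and present in 0.475% of all. A match is a description of letters, and a missing match says only that these letters are not in this window.

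The loci fell into 3 kinds by the share of the window that peaks covered. This share was largest at Vil1 and Lgals4. Cdh17 and Car2 carried several or a few separate peaks, and the windows of Slc26a3 and Fabp1 were almost or wholly without them. Peaks covered 38.3% of the 90-kb Vil1 window, 37.6% of the 60-kb Lgals4 window, 9.54% of the 240-kb Cdh17 window, 6.42% of the 90-kb Car2 window and 1.20% of the 160-kb Slc26a3 window. These shares rest on the widths of the windows. In length, peaks covered 34.5 kb at Vil1, 22.5 kb at Lgals4, 22.9 kb at Cdh17, 5.78 kb at Car2 and 1.92 kb at Slc26a3. The windows reach past the genes. In the order of protein-coding genes in RefSeq, Ctdsp1 precedes and Usp37 follows Vil1, and Gem precedes and Pdp1 follows Cdh17. Ech1 precedes and Lgals7 follows Lgals4, and Thnsl2 precedes and Smyd1 follows Fabp1. Dld precedes and Cbll1 follows Slc26a3, and Car3 precedes and Gm9733 follows Car2. The peak table names no genes and no annotation of its build was used, so no peak was assigned to a promoter, an intron or a neighbour.

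**Figure D1:**
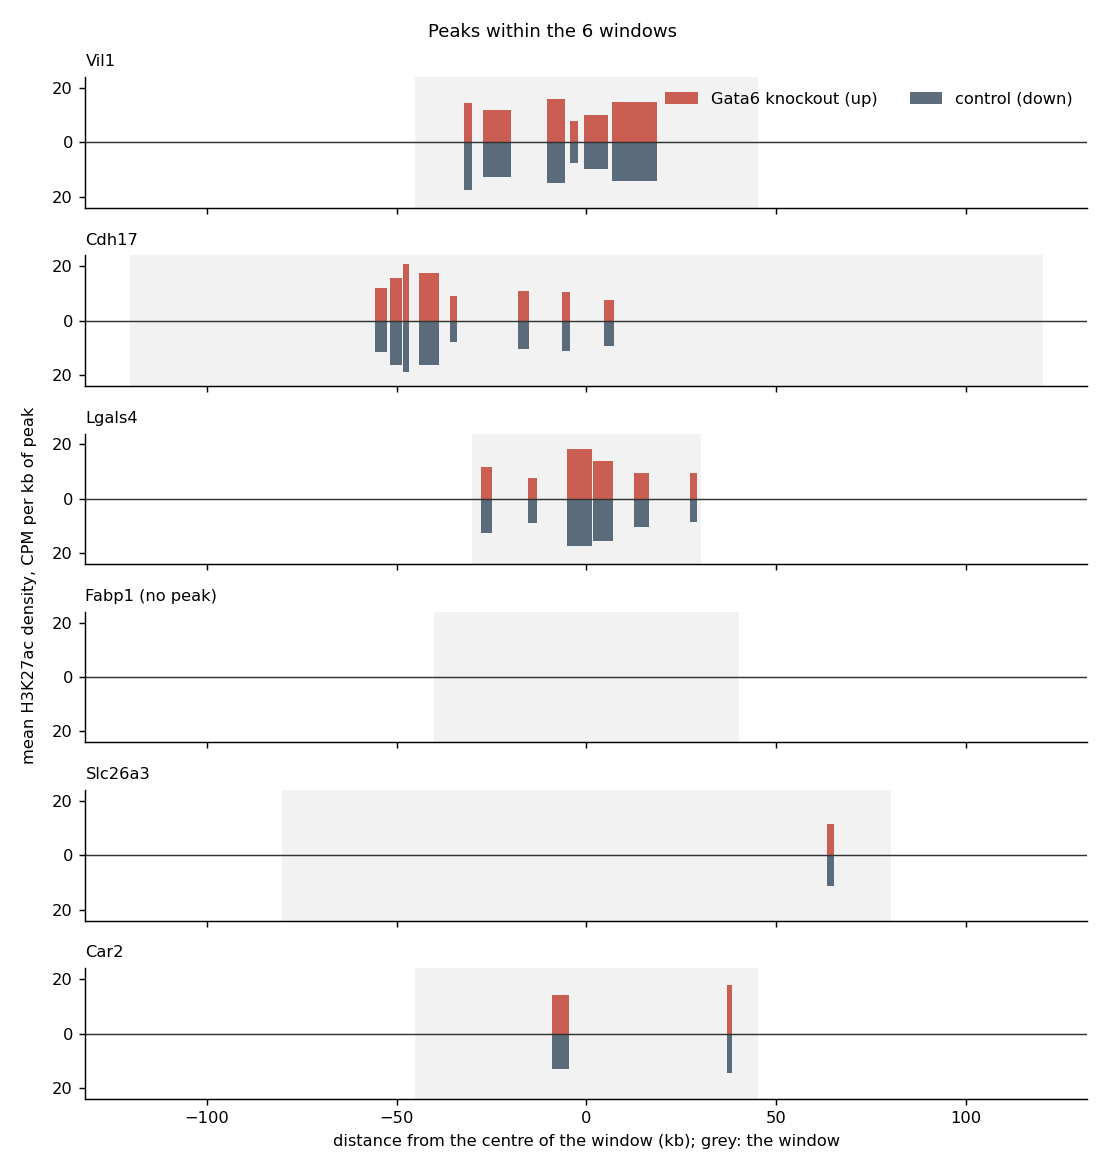
Each row is 1 window (grey), with distance from its centre in kb on the horizontal axis. Bars span the peaks, and their height is the mean H3K27ac density in CPM per kb of peak, upward for the 3 Gata6 knockout libraries and downward for the 3 control libraries. Peak positions and widths are the same in both groups because the peak set is shared, so only the heights can differ. Fabp1 has no peak.

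Acetylation at these loci was not called different between the genotypes at any peak. Of the 23 peaks, 0 passed the test with a higher level in the Gata6 knockout and 0 with a lower one, against a background of 21.8% of all 22731 peaks called in either direction, 11.6% higher and 10.2% lower (edgeR's quasi-likelihood test, Benjamini-Hochberg adjusted p under 0.05 over all peaks). Among the 19863 peaks whose mean level lay in the same range as that of the members, 21.6% were called. No member reached an unadjusted p under 0.05, as 32.0% of all peaks did, and DESeq2 also called 0 of the 23, where it called 22.4% of all peaks, with 0 members at an unadjusted p under 0.05. The smallest adjusted p was 0.227 with edgeR and 0.183 with DESeq2. The log2 fold changes of knockout over control ran from -0.28 to 0.33 with a median of 0.06, 14 above 0 and 9 below, while the median over all peaks was -0.0081. The median absolute log2 fold change was 0.11 over the members and 0.20 over all peaks. Peaks of 1 locus share their surroundings and are not independent of one another.

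A p that misses the threshold does not show equal levels, so the intervals are given. The 95% interval of the log2 fold change included 0 at all 23 peaks. It excluded a 2-fold difference in either direction at all 23 and a 1.5-fold difference at 19 of them. The lowest bound of any peak was -0.63, at Cdh17, and the highest was 0.72, at Car2. Across all peaks, 57.2% had an interval that excluded a 1.5-fold difference, so at least that share also excluded a 2-fold one. In 4 of the 23 peaks the 3 knockout libraries lay entirely on one side of the 3 control libraries, 3 above and 1 below, against 33.8% of all peaks, of which 17.5% lay above and 16.2% below.

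**Figure D2:**
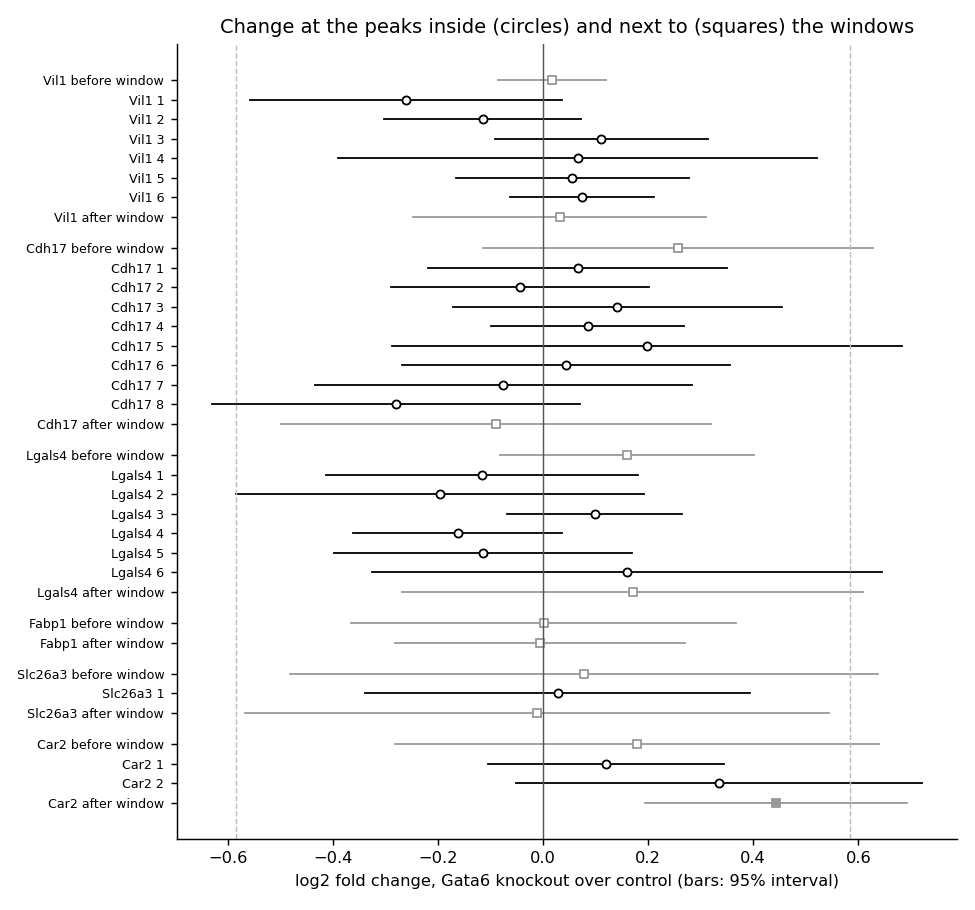
Log2 fold change of Gata6 knockout over control with its 95% interval for the 23 peaks inside the windows (circles, numbered by position) and for the nearest peak on either side (grey squares). Filled symbols passed the adjusted p of 0.05 and dashed lines stand at a 1.5-fold difference. Every circle is open and its interval includes 0, and the filled square is the peak after the Car2 window, at 0.44.

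**Figure D3:**
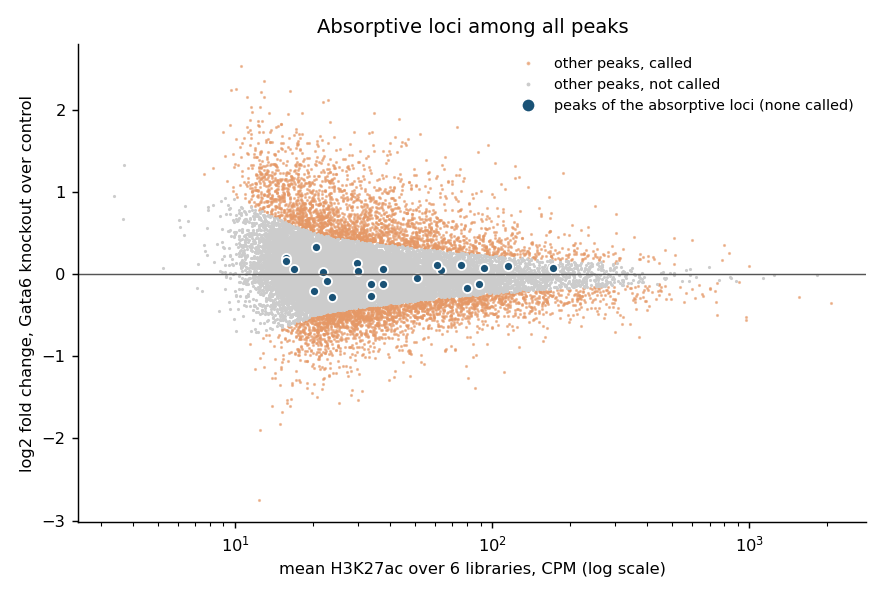
Log2 fold change of Gata6 knockout over control against the mean H3K27ac level over the 6 libraries, in CPM on a log axis, for all 22731 peaks. The 23 peaks of the absorptive loci lie between -0.28 and 0.33, within the band of peaks that were not called.

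Levels are given as CPM, read counts scaled by TMM to each library's reads in peaks, so a change shared by all peaks of a library would not be seen. Reads in peaks numbered 5495414 to 6196455 in the knockout libraries and 5141856 to 7026388 in the control libraries. The member peaks held 72 to 1175 reads each per library, and their standard errors ran from 0.070 to 0.25 on the log2 scale. The members ran from low to high level, from percentile 10.0 to percentile 97.4 of all peaks: 15 of 23 lay above the median level and 4 above the 90th percentile. Their median density over the 6 libraries was 12.3 CPM per kb of peak, against 10.7 CPM per kb over all peaks.

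Vil1, the microvillus gene, carried the highest summed level. Its 6 peaks held 454, 457 and 447 CPM in knockout replicates 1 to 3, against 436, 425 and 481 CPM in control replicates 1 to 3. The groups overlapped, and the mean sums were 453 ± 5.49 CPM in knockout and 447 ± 30.0 CPM in control libraries (SD, n = 3 each), a log2 ratio of 0.018. The widest and highest peak of the locus, from 74471768 to 74483508 on chromosome 1, spanned 11741 bp and stood at percentile 97.4 of level. It held 177, 184 and 168 CPM in the knockout libraries and 169, 165 and 168 CPM in the control libraries. Knockout replicate 3 lay within the control range and the other two above it. The log2 fold change was 0.07 ± 0.07 (SE), with a 95% interval of -0.06 to 0.21 and an adjusted p of 0.513 by edgeR's quasi-likelihood test.

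The peak at Vil1 with the largest difference was the first, from 74432768 to 74434881. It held 29.6, 31.2 and 31.4 CPM in the knockout libraries and 34.8, 35.4 and 40.1 CPM in the control libraries. Each knockout library was below each control library, but the difference did not pass the test: the log2 fold change was -0.26 ± 0.15 (SE), the interval -0.56 to 0.04 and the adjusted p 0.227 by edgeR's quasi-likelihood test. Per length it was the densest peak of the locus in control libraries, with 14.5 CPM per kb in knockout and 17.4 CPM per kb in control libraries. The third peak, from 74454545 to 74459452, lay apart the other way, with 78.6 ± 1.07 CPM in knockout and 72.6 ± 4.61 CPM in control libraries (SD, n = 3 each), and its log2 fold change was 0.11. The remaining 3 peaks had log2 fold changes of -0.11, 0.07 and 0.06 and overlapping groups. At the second of the 6, control replicate 3 held 112 CPM, against 83.5 and 82.2 CPM in control replicates 1 and 2, and without that library the log2 fold change was 0.05 in place of -0.11.

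**Figure D4:**
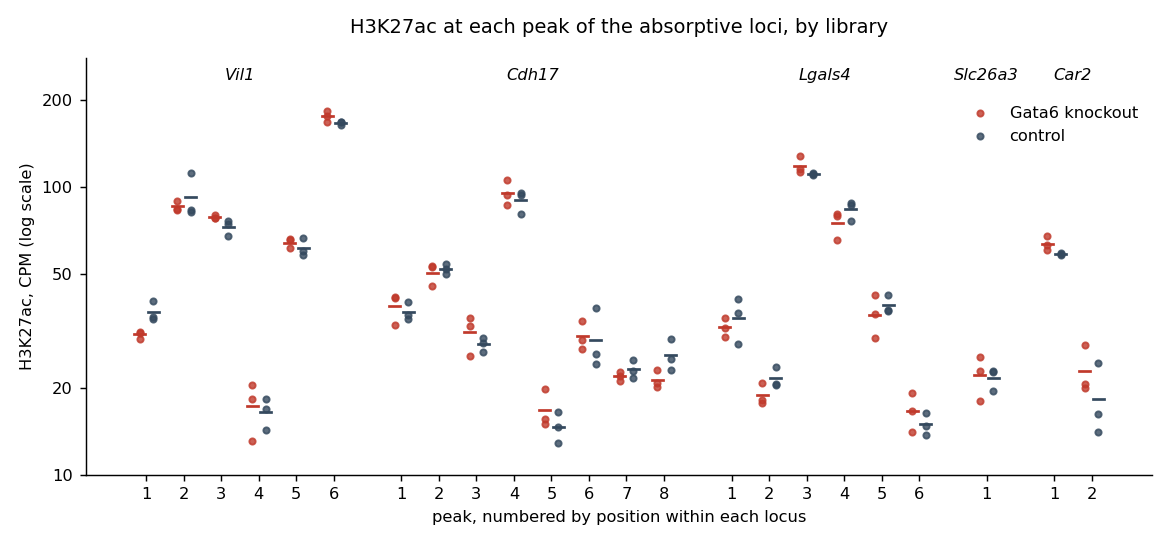
H3K27ac level of each of the 23 peaks in CPM on a log axis, with 1 point per library, knockout in red to the left of control in blue, and a line at each mean. Peaks are numbered by position within each locus. The levels run from about percentile 10.0 to percentile 97.4 of all peaks, and the groups overlap at 19 of the 23 peaks.

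Cdh17, the adhesion gene, had the most peaks, which crowded into 63.0 kb of its 240-kb window. The summed level was 325, 310 and 284 CPM in the knockout libraries, against 316, 303 and 283 CPM in the control libraries, and the groups overlapped. The mean sums were 306 ± 21.0 CPM in knockout and 301 ± 16.3 CPM in control libraries (SD, n = 3 each), a log2 ratio of 0.03. The first 5 peaks lay within the leading part of this stretch and included the highest, from 11695784 to 11701279 on chromosome 4. It held 106, 93.8 and 86.6 CPM in the knockout libraries and 95.7, 93.9 and 80.8 CPM in the control libraries. The ranges overlapped, and the log2 fold change was 0.08 ± 0.09 (SE), with an interval of -0.10 to 0.27 and an adjusted p of 0.590 by edgeR's quasi-likelihood test. It was 0.0035 without knockout replicate 1, 0.0086 without control replicate 3 and 0.15 without knockout replicate 3. The third peak, which was narrow, from 11691629 to 11693125, was the densest of all 23, at percentile 98.2 of CPM per kb, with 20.9 CPM per kb in knockout and 19.0 CPM per kb in control libraries.

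The last of the 8 Cdh17 peaks, from 11744499 to 11747276, had the lowest log2 fold change of all 23 peaks. Its level was 20.2, 23.2 and 20.8 CPM in the knockout libraries and 29.6, 25.3 and 23.2 CPM in the control libraries. Knockout replicate 2 just passed control replicate 3, and every other knockout library was below every control library. The log2 fold change was -0.28 ± 0.18 (SE), with an interval of -0.63 to 0.07 and an adjusted p of 0.283 by edgeR's quasi-likelihood test. Its interval does not exclude a 1.5-fold lower level. In the other 6 peaks, the log2 fold changes ran from -0.08 to 0.20, with overlapping groups in each.

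Lgals4, the lectin gene, had a slightly lower mean sum in the knockout, with overlapping groups. The summed level was 290.2, 304 and 299.7 CPM in the knockout libraries, against 304, 299.9 and 313 CPM in the control libraries. The mean sums were 298 ± 6.89 CPM in knockout and 305 ± 6.53 CPM in control libraries (SD, n = 3 each), a log2 ratio of -0.04. A neighbouring pair in the middle of the window carried most of it, and the 2 differed in sign. The first of this pair, from 29614958 to 29621388 on chromosome 7, held 116, 112.5 and 128 CPM in the knockout libraries and 112.4, 111 and 109.8 CPM in the control libraries. Each knockout library was above each control library, though by a small margin at the closest, and the log2 fold change was 0.10 ± 0.08 (SE, adjusted p = 0.461 by edgeR's quasi-likelihood test). The second, from 29621668 to 29627098, held 80.4, 79.1 and 65.4 CPM in the knockout libraries and 76.5, 88.0 and 86.8 CPM in the control libraries. Its groups overlapped, and its log2 fold change was -0.16 ± 0.10 (SE, adjusted p = 0.272 by the same test). Without knockout replicate 3 the 2 values were 0.04 and -0.07. Whether the members of the pair differ from one another was not tested.

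The largest difference at Lgals4 was at the second of the 6 peaks, from 29604548 to 29607001. It held 17.8, 18.1 and 20.8 CPM in the knockout libraries and 20.5, 20.6 and 23.8 CPM in the control libraries. Knockout replicate 3 passed control replicates 1 and 2 by a small margin, so the groups overlapped. The log2 fold change was -0.20 ± 0.20 (SE), with an interval of -0.58 to 0.19 and an adjusted p of 0.545 by edgeR's quasi-likelihood test. The other 3 peaks had log2 fold changes of -0.12, -0.11 and 0.16.

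Slc26a3, the anion exchanger gene, had 1 peak in its 160-kb window, from 32183357 to 32185280 on chromosome 12, close to the far edge on the side where Cbll1 follows. Whether it belongs to Slc26a3 or to a neighbour could not be told from the table. It held 23.0, 25.6 and 18.1 CPM in the knockout libraries, against 19.5, 23.0 and 22.8 CPM in the control libraries, with overlapping groups and a level at percentile 33.2 of all peaks. The log2 fold change was 0.03 ± 0.19 (SE), with an interval of -0.34 to 0.39 and an adjusted p of 0.945 by edgeR's quasi-likelihood test. The nearest peak before the window lay 3.07 kb outside it, and the nearest after it 139 kb outside.

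Fabp1, the fatty acid carrier gene, had no peak in its 80-kb window in the peak set of the 6 libraries. The table lists reads only within peaks, so no level can be given for either group and no difference was tested. The nearest peak before the window lay 272 kb away. The nearest after it, from 71220166 to 71223236 on chromosome 6, lay 30.2 kb away, and it held 40.1 CPM in knockout and 40.2 CPM in control libraries on average. Windows without a peak were common: when the autosomes were divided into tiles of 80 kb, 73.9% held no peak, as did 64.6% of tiles of 160 kb. These tiles include gene-poor DNA.

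Car2, the carbonic anhydrase gene, had 2 peaks, 1 near the middle of the window and 1 near its end. The first, from 14885950 to 14890455 on chromosome 3, held 67.6, 60.6 and 62.7 CPM in the knockout libraries and 58.1, 59.2 and 58.4 CPM in the control libraries. Each knockout library was above each control library, and the log2 fold change was 0.12 ± 0.11 (SE), with an interval of -0.11 to 0.34 and an adjusted p of 0.521 by edgeR's quasi-likelihood test. The second, from 14932075 to 14933350, held 28.2, 20.7 and 20.04 CPM in the knockout libraries and 14.1, 24.5 and 16.3 CPM in the control libraries. Control replicate 2 lay above 2 of the knockout libraries. The log2 fold change, 0.33 ± 0.20 (SE), was the highest of the 23 peaks, and its interval of -0.05 to 0.72 includes a 1.5-fold difference (adjusted p = 0.235 by the same test). Without control replicate 2 it was 0.59, with an adjusted p of 0.0557, and without knockout replicate 1 it was 0.16, with an adjusted p of 0.712. Summed over both, Car2 held 86.6 ± 7.98 CPM in knockout and 76.9 ± 6.07 CPM in control libraries (SD, n = 3 each), a log2 ratio of 0.17 with overlapping groups. Without knockout replicate 1 this ratio was 0.093, and with the window widened by 50 kb it was 0.29.

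**Figure D5:**
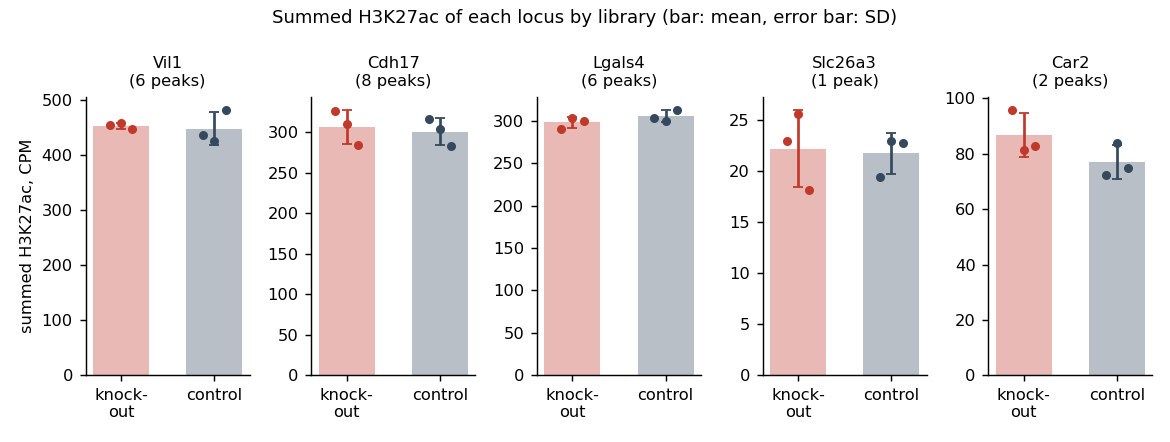
Summed H3K27ac in CPM over the peaks of each locus, with knockout left of control, bars for means, error bars for SD (n = 3 each) and points for libraries. Each panel has its own axis, which starts at 0. Means differ by -2.48% at Lgals4 to 12.6% at Car2, and the groups overlap at all 5 loci.

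Within 100 kb outside the 6 windows lay 23 further peaks, of which 4 were called higher and 1 lower, or 21.7%, close to the 21.8% of all peaks. The 3 of them that followed the Car2 window had higher means in the knockout, and 2 were called. The nearest, 16.0 kb outside the window, from 14955993 to 14960010, held 53.6, 61.3 and 57.4 CPM in the knockout libraries and 45.2, 46.0 and 36.1 CPM in the control libraries. The groups lay apart, and the log2 fold change was 0.44 ± 0.13 (SE, adjusted p = 0.00411 by edgeR's quasi-likelihood test); without control replicate 3 the call was lost, at 0.33 with an adjusted p of 0.0812. The next, from 14968964 to 14971063, had a log2 fold change of 0.34 (adjusted p = 0.0906). The farthest, from 14999221 to 15002141, held 42.5, 47.9 and 34.3 CPM in the knockout libraries and 27.5, 25.3 and 22.8 CPM in the control libraries. Its log2 fold change was 0.72 ± 0.15 (SE, adjusted p = 4.66e-05 by the same test). The call at this farthest peak held with each library left out, with adjusted p-values of 3.0e-05 to 0.0055 by the same test. Neither of the 2 calls after Car2 held in the test against a 1.5-fold change. These 3 peaks are not members, those beyond the nearest were looked at after their values were seen, and a difference between them and the 2 members was not tested. On the other side of Car2, the nearest peak was 4483 kb from the window.

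Of the 20 peaks around the other windows, 3 were called, all after Lgals4. From 29685328 to 29695449 the level was lower in the knockout, with 136 ± 6.32 CPM in knockout and 158 ± 4.34 CPM in control libraries (SD, n = 3 each) and an adjusted p of 0.0276 by edgeR's quasi-likelihood test. This call was lost when either of knockout replicates 1 and 2 or of control replicates 2 and 3 was left out, with adjusted p-values of 0.0755 to 0.0959. It was also lost when libraries were scaled by trended offsets, with an adjusted p of 0.0847 by the same test. From 29713812 to 29729327 the level was higher, with 275 ± 14.1 CPM in knockout and 237 ± 16.5 CPM in control libraries (SD, n = 3 each). Its log2 fold change was 0.21 ± 0.06 (SE, adjusted p = 0.00322 by the same test). The peak from 29729753 to 29738268 held 153, 154 and 143 CPM in the knockout libraries and 96.4, 105 and 96.8 CPM in the control libraries. Its groups lay apart, with a log2 fold change of 0.59 ± 0.08 (SE, adjusted p = 3.99e-11 by the same test), and both higher calls held with each library left out. None of these 3 calls held in the test against a 1.5-fold change. The peaks nearest to the Lgals4 window, 0.246 kb before and 0.286 kb after it, had log2 fold changes of 0.16 and 0.17 and were not called.

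The order of the loci was the same in both groups where their ranges lay apart. Per kb of window, the knockout libraries held 5.03 ± 0.0610 CPM at Vil1, 4.96 ± 0.115 at Lgals4, 1.28 ± 0.0875 at Cdh17, 0.962 ± 0.0887 at Car2 and 0.139 ± 0.0237 at Slc26a3. The control libraries held 4.97 ± 0.333, 5.09 ± 0.109, 1.25 ± 0.0681, 0.854 ± 0.0674 and 0.136 ± 0.0123 CPM per kb at the same loci (SD, n = 3 each). Vil1 and Lgals4 did not differ beyond their spread in either group, and the other neighbours in this order lay apart. This order rests on the extent of the windows. Per kb of peak the 5 loci lay closer together, at 11.6 to 14.97 CPM in knockout and 11.3 to 13.5 CPM in control libraries.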

How the data were processed

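The 6 paired-end H3K27ac libraries among the 8 samples were used. The remaining 2, for H3K4me3 and IgG, were not, and no background was removed. The authors deposited unnormalized counts of reads for each peak of 1 shared set in mm9. The submitters' processing notes name Bowtie, Picard, SAMtools, SEACR and bedtools. Versions, roles and the way peaks were combined are not given there. Between 82.8% and 88.9% of counts were even in each library, as when both mates are counted, which widens the counting error.

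All 22731 peaks were fitted with edgeR 4.0.16 in R 4.3.3 (filterByExpr, TMM, quasi-likelihood, group as the only term, two-sided). Calls were made at an adjusted p under 0.05, with Benjamini-Hochberg adjustment over all peaks. The common dispersion gave a coefficient of variation of 11.4%. The code was also run on simulated counts with this dispersion at every peak and without the excess of even counts. That run does not show how the test behaves on these data. Standard errors came from the F statistic, and 95% intervals from the t distribution with the fit's degrees of freedom. Locus sums were described without a test, since an exact permutation test of 3 libraries against 3 cannot go below p = 0.1. The windows were also chosen with earlier results of these data known. Alternatives included DESeq2 1.42.0.

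Same-numbered libraries were not paired by the labels, and no 2 libraries looked like copies: within groups, halved counts gave a chi-square of 1.53 to 1.85 per degree of freedom. The members, windows and lists were chosen with earlier results of these data known. Every peak in a window was accounted for, and given in full were the highest peak of each locus, the peak with the largest absolute log2 fold change, and any called peak inside a window; the other peaks given by library, the tiles, the intervals and the peaks within 100 kb were chosen after values were seen. Other absorptive genes were not located, since no mm9 annotation was used. RefSeq promoters were matched by symbol for 4 of 6 genes.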

Additional observations from a re-analysis of the deposited data

How the results depend on the processing

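Across 17 alternative fits, 0 of the 391 recomputed values of the 23 peaks were called, and the lowest adjusted p was 0.0557. These varied the test (DESeq2, a 1.5-fold threshold, a replicate block), the scaling (upper-quartile, DESeq2, total counts, trended offsets), the filter, the counts (halved), chromosome 5 (removed) and the libraries (each removed in turn). An adjusted p under 0.01 also left 0 called. Widening the windows by 50 kb brought in 10 more peaks, of which 1 was called higher, at Car2 from 14955993, and 1 lower, at Lgals4 from 29685328. With the replicate block, 0 member peaks and 2704 higher and 2409 lower peaks of all were called. Deviations of same-numbered libraries correlated at 0.00591 to 0.0671, against -0.0489 to 0.0403 for others, and some libraries correlated best with another number. Of all peaks, 381 were higher and 85 lower against a 1.5-fold change, and 1872 were higher and 1478 lower at an adjusted p under 0.01, in place of 2640 higher and 2320 lower. Leaving out each library gave 2220 to 2367 higher and 1741 to 1996 lower.

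Signs changed in 13 of the 391 values, at 8 peaks, none called, and the changed values were at most 0.086 in size. With trended offsets, the Vil1 peak at 74460654 stood at -0.042 and the Lgals4 peak at 29647415 at -0.0048. With each library left out, values ran from -0.19 to 0.050 at Vil1 74437822, -0.074 to 0.23 at Vil1 74460654, -0.086 to 0.032 at Cdh17 11688186, -0.086 to 0.27 at Cdh17 11722055, -0.24 to 0.0024 at Lgals4 29592322, -0.24 to 0.0014 at Lgals4 29632642 and -0.084 to 0.16 at Slc26a3 32183357. The cause was not tested. Log2 ratios of locus sums moved by less than the library SD, the larger of the groups' SDs, under each alternative tried. With each library left out they ran from 0.093 to 0.24 at Car2 and from -0.050 to -0.018 at Lgals4. The sign changed at the other loci, with -0.019 to 0.073 at Vil1, -0.019 to 0.079 at Cdh17 and -0.081 to 0.16 at Slc26a3. With 3 libraries a group and 72 to 1175 reads per peak, the 95% intervals excluded a 1.5-fold difference at 19 of the 23 peaks.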
